A study of Mus musculus with 9 samples.

Results

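Heat shock proteins and J-domain chaperones were followed in messenger RNA of ears from C57 mice as the protein-coding genes whose symbols begin with Hspa, Hspb, Hspd, Hspe, Hsph, Hsp90, Dnaja, Dnajb or Dnajc and a number. The count table held 72 of them among 55401 features. They comprised 13 Hsp70 genes, 1 Hsp110 gene, 3 Hsp90 genes, the 2 genes of the mitochondrial chaperonin, 8 small Hsp genes and 45 J-domain genes, of which 4 belong to class A, 13 to class B and 28 to class C. Families were set by symbol alone. Hspa4 and Hspa4l, relatives of the Hsp110 gene Hsph1, therefore count as Hsp70, and the place of Hspb11 among small Hsps rests on its name. The 9 libraries came from 3 groups of 3: MC903 combined with paeonol dosed at 200 mg/kg, ears treated with MC903 alone, and control ears treated with absolute ethyl alcohol. MC903 is calcipotriol, a vitamin D analogue that is applied to mouse skin to raise a dermatitis resembling atopic dermatitis, and paeonol is a phenolic compound of peony root bark. The labels name no transgene, age or sex, no route or duration of paeonol and no vehicle control for it. The control ears differ from the MC903 ears by the agent named in the labels, and only the paeonol ears carry both agents. Nothing in the labels ties a library to its own mouse, and p-values then describe only how these libraries vary.

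Heat shock proteins are chaperones that bind unfolded or partly folded protein. Hsp70 proteins bind short hydrophobic stretches and release them in a cycle driven by ATP, J-domain proteins bring them clients and start the ATP hydrolysis, and Hsp110 proteins act as their nucleotide exchange factors. Hsp90 proteins finish the folding of kinases and steroid receptors, the chaperonin Hsp60 with its lid Hsp10 folds proteins inside mitochondria, and small Hsps hold unfolded protein without using ATP. Many cytosolic members are switched on by the transcription factor HSF1 in stressed cells, whereas members of the endoplasmic reticulum follow the unfolded protein response. In skin, Hspb1 (Hsp25 or Hsp27) is known as a keratinocyte protein that increases as these cells differentiate.

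Library totals were between 54.26 M and 57.75 M estimated counts. Values below are CPM, that is counts scaled to a common library size of 1 M with TMM factors, and are given for libraries 1, 2 and 3 of a group. A gene was called when its edgeR quasi-likelihood adjusted p was under 0.05 over 21925 genes. Of the 72 members, 69 passed the filter on low counts. Dnajb8 and Dnajc5g had 0 counts in every library, and Dnajc5b had at most 4 counts, in control library 3. With a floor of 12 counts, these 3 lie at or below 0.192 to 0.235 CPM, so their expression was not detectable at this depth. The floor covers counting error only. All 12 keratinocyte markers were tested and summed to 49284 to 53770 CPM in MC903+paeonol ears, 41245 to 48009 CPM in MC903 ears and 19488 to 22481 CPM in control ears, so markers of the labelled skin were present in each group. The tissue is bulk, so fewer cells of a type and less RNA per cell cannot be told apart.

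RNA of cell type markers differed between the groups, and the part of tissue make-up in the results on chaperones was not tested. Of all genes tested, 46.8% were called in MC903 against control ears and 29.7% in MC903+paeonol against MC903 ears. In MC903 against control ears, the counts of markers called higher and lower were 0 and 18 of 20 for skeletal muscle, 2 and 1 of 9 for smooth muscle, 6 and 2 of 12 for keratinocytes and 0 and 10 of 10 for adipocytes. They were 10 and 0 of 10 for macrophages, 3 and 0 of 8 for neutrophils, 1 and 2 of 9 for endothelium, 1 and 6 of 8 for fibroblasts, 0 and 7 of 8 for cartilage and 0 and 6 of 7 for nerve. In MC903+paeonol against MC903 ears the same counts were 6 and 2 for skeletal muscle, 0 and 6 for smooth muscle, 6 and 4 for keratinocytes, and 5 and 1 for adipocytes. They were 0 and 10 for macrophages, 1 and 2 for neutrophils, 0 and 9 for endothelium, 4 and 1 for fibroblasts, 6 and 0 for cartilage and 3 and 1 for nerve. No marker of these lists was listed at 0 in every library.

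Per kilobase of merged exons, the cytosolic Hsp90 gene Hsp90ab1 had the highest level of all members in every group, with means of 490 ± 17.1 CPM per kb in MC903+paeonol ears, 510 ± 15.3 CPM per kb in MC903 ears and 341 ± 7.03 CPM per kb in control ears (SD, n = 3 each). In control ears Hspb1 at 212 CPM per kb and the constitutive cytosolic Hsp70 gene Hspa8 at 169 CPM per kb followed, and the ranges of these neighbours over libraries overlapped (175 to 251 and 158 to 178 CPM per kb). Hspa5 at 65.8, Hsp90b1 at 62.7 and Hspb8 at 61.9 CPM per kb came next, again with overlapping ranges. Hspa9 at 57.1 and Hspb6 at 49.6 CPM per kb followed without a clear step. Their ranges (54.8 to 59.1 and 38.4 to 58.4 CPM per kb) overlapped that of Hspb8 (55.5 to 65.3 CPM per kb). Hspb1 ranked 2 in MC903+paeonol ears (248 CPM per kb), 7 in MC903 ears (99.2 CPM per kb) and 2 in control ears. Merged exons count every annotated isoform, which lowers the level per length of genes with long alternative ends such as Hspa8, Hspa4l, Dnaja1 and Dnajb14. Hspa8 has 4301 bases of merged exons and a longest coding transcript of 2394 bases. For Hsp90ab1 these lengths are 2999 and 2520 bases. Before division by length, Hspa8 averaged 1716 CPM and Hsp90ab1 1529 CPM in MC903 ears. The order of the top members therefore depends on the length used.

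**Figure D1:**
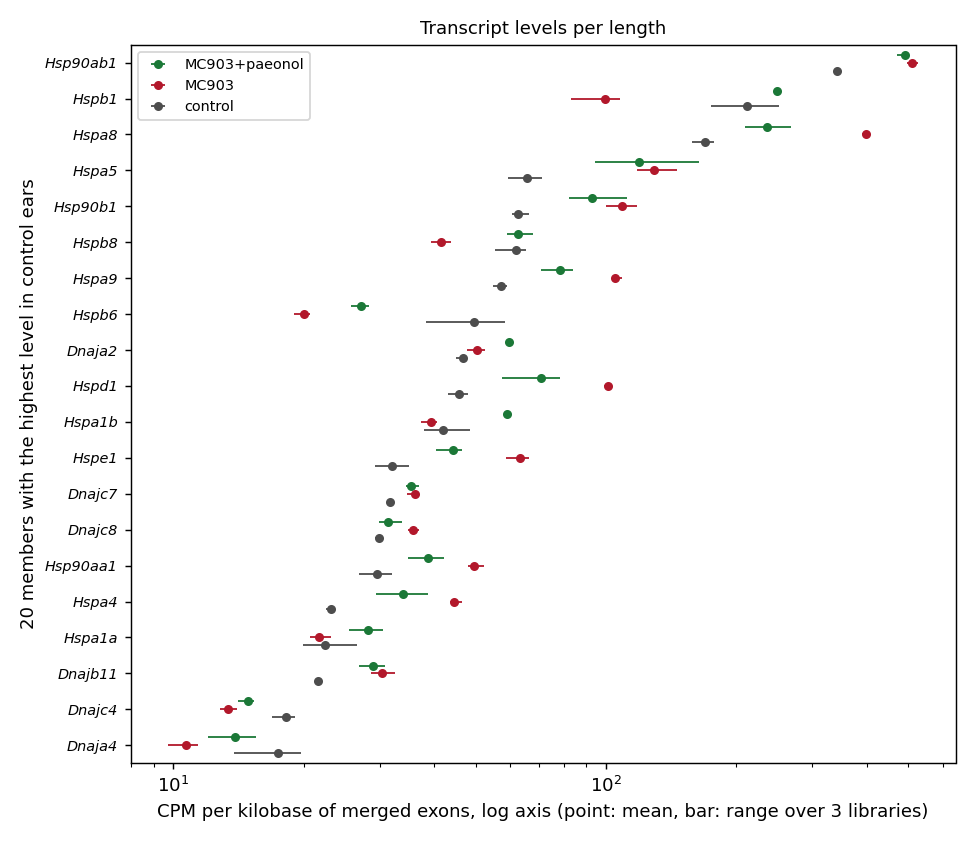
Transcript levels per length, in CPM per kilobase of merged exons on a log axis, of the 20 members with the highest level in control ears. Points are group means and bars the range over 3 libraries. By this length Hsp90ab1 is highest in every group, an order that depends on the length used. Hspb1 is the member near the top whose MC903 range lies far below the other groups.

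The comparison of MC903 with control ears asks how the chaperone genes differ in the treated skin. Members changed in both directions: 21 of 69 were called higher and 20 lower, or 59.4% against 46.8% of all genes tested (23.0% of all genes were higher and 23.8% lower). The calls split by family. All 3 Hsp90 genes, Hsph1 of the Hsp110 family and both chaperonin genes were higher, and 5 of 8 small Hsp genes were lower and none higher. The Hsp70 genes divided into 5 higher and 3 lower of 13, and the J-domain genes into 10 higher and 12 lower of 42. Median log2 changes were 0.74 for Hsp90, 1.06 for the chaperonin, -0.83 for small Hsps, -0.01 for Hsp70 and 0.02 for J-domain genes, beside -0.02 for all genes. With library totals alone as the scaling, the Hsp90, Hsp110 and chaperonin counts were the same, 6 small Hsp genes were lower, and the J-domain counts were 5 higher and 17 lower. Under that scaling the median over all genes was -0.205.

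The comparison of MC903+paeonol with MC903 ears asks what differs when paeonol is given. Here 16 of 69 members were called higher and 11 lower, or 39.1% against 29.7% of all genes tested (15.3% higher and 14.3% lower). Hsp110 (1 of 1), the chaperonin (2 of 2) and Hsp90 (1 of 3) contributed only lower calls, small Hsps only higher ones (4 of 8), and Hsp70 had 4 higher and 3 lower of 13. J-domain genes had 8 higher and 4 lower of 42, and 28.6% of them were called, close to the share among all genes. The 4 lower J-domain calls were 2 without control library 2 or 3, MC903 library 1 or paeonol library 3. Median log2 changes were -0.67 for Hsph1, -0.51 for the chaperonin, -0.24 for Hsp90 and 0.45 for small Hsps, beside 0.00 for all genes.

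Against control ears, MC903+paeonol ears had 24 members called higher and 10 lower of 69, or 49.3% against 30.9% of all genes tested (16.3% higher and 14.5% lower). Hsp70 had 8 higher and 3 lower of 13. All 3 Hsp90 genes, Hsph1 and both chaperonin genes were higher, 2 of 8 small Hsps were lower and none higher, and J-domain genes had 10 higher and 5 lower of 42. With library totals alone the counts were 15 higher and 17 lower, so the balance of higher to lower members in this comparison turned with the scaling. Under it J-domain genes had 5 higher and 9 lower, Hsp70 5 and 4, small Hsps 0 and 4, Hsph1 was not called, and the Hsp90 and chaperonin counts did not change. With 1 library left out, J-domain genes had 6 to 11 higher and 1 to 4 lower. The lower calls were 1 without control library 3, 2 without paeonol library 2 or 3 and 3 without control library 1 or paeonol library 1, and the higher calls were 6 without control library 2 or 3 or paeonol library 2. Hsp70 had 5 higher without control library 3. The comparisons share libraries, MC903 in 2 of them and control and MC903+paeonol likewise, so their values stand side by side below and are not independent of each other.

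**Figure D2:**
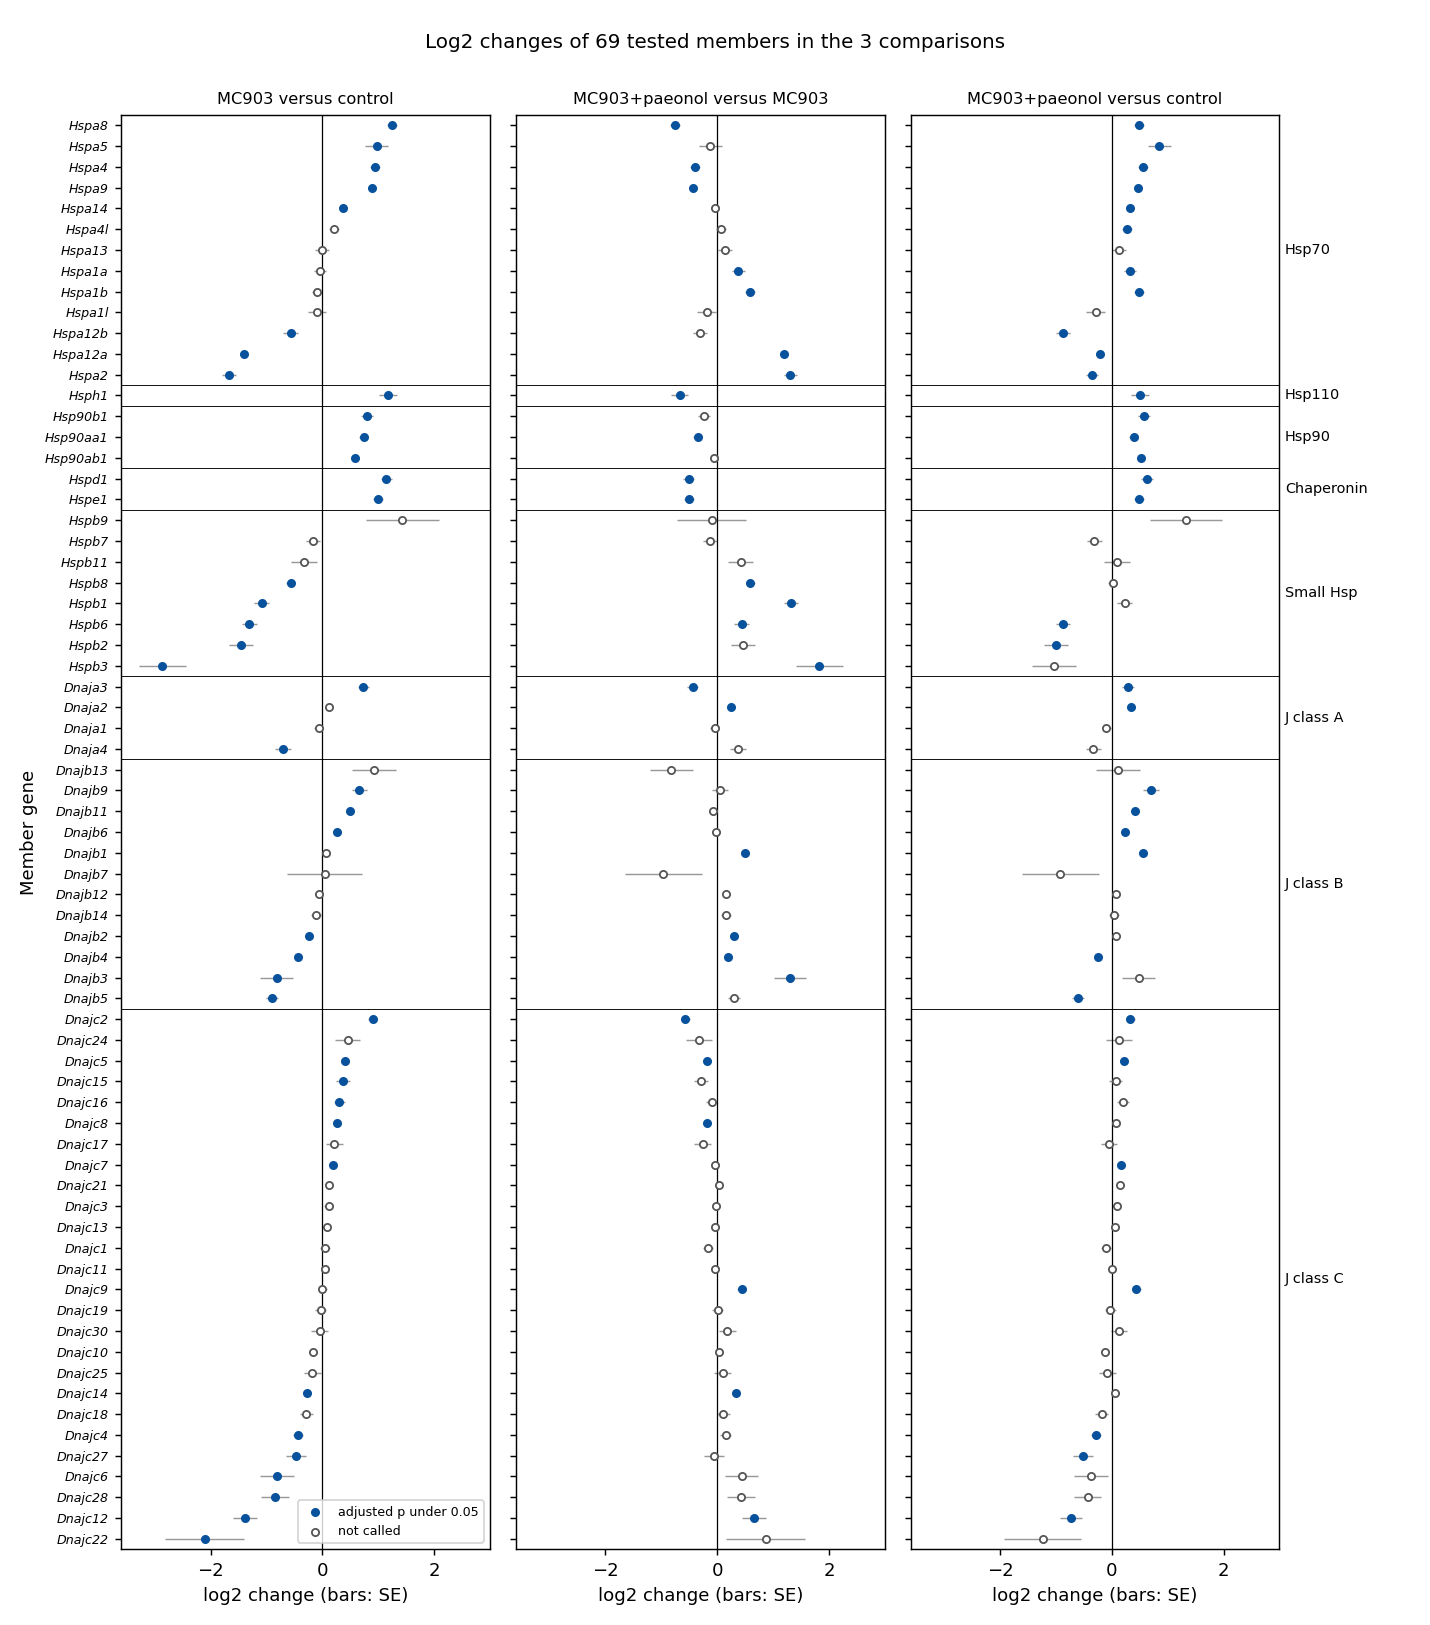
Log2 changes of the 69 tested members, by family, in MC903 versus control, MC903+paeonol versus MC903 and MC903+paeonol versus control ears; bars are standard errors and filled points passed an adjusted p of 0.05. The Hsp90, Hsp110 and chaperonin genes lie to the right in the left panel, left of 0 in the middle panel and right of 0 in the right panel, and most small Hsps lie on the other side in the left and middle panels.

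The cytosolic genes Hspa8, Hspa4, Hsph1 and Hsp90aa1 were called higher in MC903 than in control ears and lower with paeonol than with MC903 alone. Hspa8 (ENSMUSG00000015656, GRCm38 chr9:40800984-40810087, plus strand), which folds new proteins and uncoats clathrin vesicles, had 897, 983 and 1154 CPM in MC903+paeonol ears, 1680, 1734 and 1734 CPM in MC903 ears and 680, 764 and 730 CPM in control ears. No library of one group reached the range of another. The log2 change was 1.24 ± 0.09 in MC903 against control ears (SE, edgeR adjusted p = 1.07e-06), -0.76 ± 0.09 in MC903+paeonol against MC903 ears (adjusted p = 7.86e-05) and 0.48 ± 0.09 in MC903+paeonol against control ears (adjusted p = 0.00157). Of the 100-base stretches of its longest coding transcript, 63.4% also occur in transcripts of other genes, so some of its reads could have been shared out differently.

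The exchange factor Hspa4 showed the same order, with 162, 188 and 214 CPM in MC903+paeonol ears, 256, 241 and 242 CPM in MC903 ears and 124, 130 and 130 CPM in control ears. Its log2 changes by edgeR were 0.94 for MC903 against control (adjusted p = 6.25e-06), -0.39 for MC903+paeonol against MC903 (adjusted p = 0.00523) and 0.55 for MC903+paeonol against control (adjusted p = 0.00071). Its relative Hsph1 had 26.5, 32.4 and 44.3 CPM in MC903+paeonol ears, 54.1, 54.5 and 56.2 CPM in MC903 ears and 22.7, 26.7 and 23.4 CPM in control ears. The paeonol libraries of Hsph1 ranged widely, and library 1 lay within the control range. Hsph1 rose by 1.18 in MC903 against control ears (adjusted p = 0.00013) and fell by 0.67 in MC903+paeonol against MC903 ears (adjusted p = 0.0077) on the log2 scale. Its difference from control with paeonol, 0.50 (edgeR adjusted p = 0.0317), was not called without control library 1 (adjusted p = 0.1), control library 3 (0.0978), paeonol library 2 (0.0567) or paeonol library 3 (0.0772, log2 change 0.28), nor with library totals alone (0.0963). That call was also lost with only these 2 groups fitted (edgeR adjusted p = 0.0652).

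Of the cytosolic Hsp90 pair, the inducible Hsp90aa1 had 137, 153 and 166 CPM in MC903+paeonol ears, 189, 188 and 205 CPM in MC903 ears and 116, 126 and 106 CPM in control ears. The constitutive Hsp90ab1 had 1411, 1504 and 1495 CPM in MC903+paeonol ears, 1525, 1577 and 1486 CPM in MC903 ears and 1048, 1016 and 1009 CPM in control ears. Both rose in MC903 against control ears, by 0.74 ± 0.08 for Hsp90aa1 (SE, edgeR adjusted p = 2.64e-05) and 0.58 ± 0.06 for Hsp90ab1 (adjusted p = 7.94e-06). With paeonol against MC903, Hsp90aa1 fell by 0.35 ± 0.08 (edgeR adjusted p = 0.00807), while Hsp90ab1 differed by -0.06 ± 0.05 (adjusted p = 0.495) and its libraries overlapped between these groups. Both stayed above control with paeonol, at 0.39 and 0.52 on the log2 scale (edgeR adjusted p = 0.00448 and 8.02e-05). Whether the changes of the 2 genes differ was not tested. Of the 100-base stretches of the Hsp90aa1 transcript, 47.5% occur in transcripts of other genes, so its values are uncertain in the same way as those of Hspa8.

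**Figure D3:**
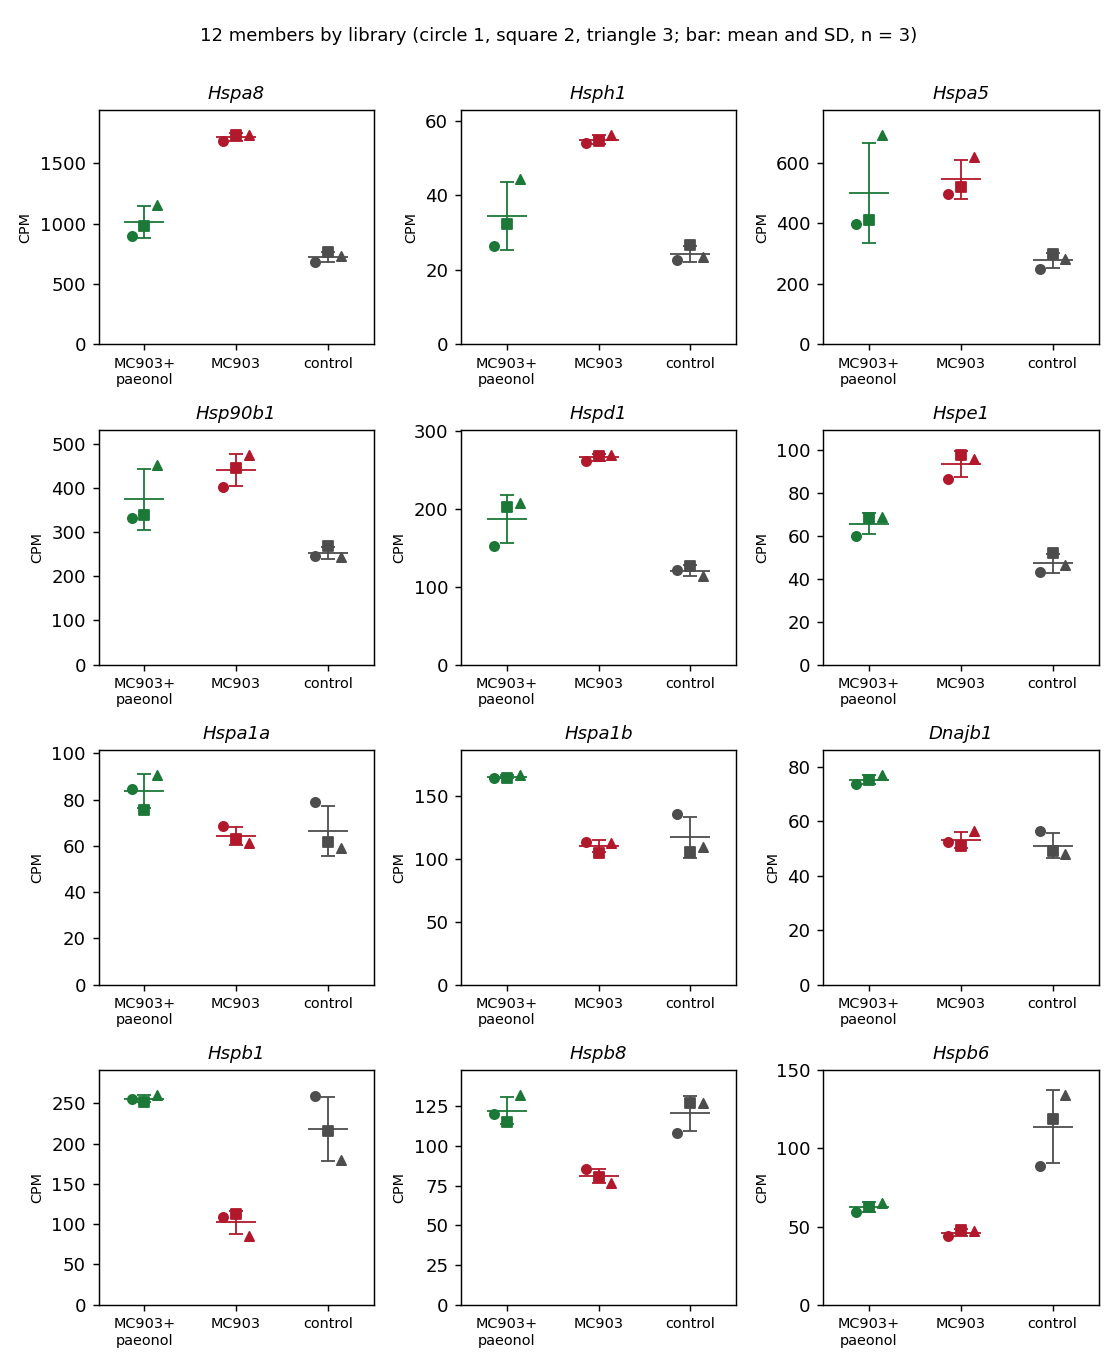
CPM of 12 members in each library of the MC903+paeonol, MC903 and control groups, with mean and SD (n = 3). Hspa8, Hsph1, Hspd1 and Hspe1 are highest in MC903 ears; Hspa1a, Hspa1b and Dnajb1 are highest with paeonol; Hspb1 and Hspb8 are lowest in MC903 ears; and paeonol library 3 is the highest of the 3 paeonol libraries for Hspa5 and Hsp90b1.

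The mitochondrial chaperones Hspd1, Hspe1 and Hspa9 had the same order without overlap between groups. Hspd1 (Hsp60), the barrel of the chaperonin, had 152, 202 and 207 CPM in MC903+paeonol ears, 261, 268 and 269 CPM in MC903 ears and 121, 127 and 114 CPM in control ears. Hspe1 (Hsp10), its lid, had 59.8, 68.2 and 68.5 CPM in MC903+paeonol ears, 86.4, 97.5 and 95.8 CPM in MC903 ears and 43.0, 51.8 and 46.5 CPM in control ears. Hspa9 (mortalin), the Hsp70 that pulls proteins through the inner membrane, had 305, 346 and 362 CPM in MC903+paeonol ears, 442, 450 and 471 CPM in MC903 ears and 236, 247 and 255 CPM in control ears. The 3 genes rose by 1.14, 0.99 and 0.89 on the log2 scale in MC903 against control ears (edgeR adjusted p = 5.08e-06, 4.21e-06 and 2.26e-06). With paeonol they fell by 0.51, 0.51 and 0.43 against MC903 ears (edgeR adjusted p = 0.00271, 0.000959 and 0.000835) and were 0.63, 0.48 and 0.46 above control ears (adjusted p = 0.000809, 0.00162 and 0.00063). Of the 100-base stretches of the Hspd1 and Hspe1 transcripts, 26.9 and 22.4% occur in transcripts of other genes. Dnaja3 (Tid1), the J-domain partner of Hspa9, had 47.3, 57.7 and 59.1 CPM in MC903+paeonol ears, 69.9, 73.6 and 79.1 CPM in MC903 ears and 39.9, 47.1 and 47.7 CPM in control ears. Its paeonol library 1 lay within the control range. It rose by 0.73 in MC903 against control ears (edgeR adjusted p = 0.000102) and fell by 0.44 with paeonol against MC903 ears (adjusted p = 0.00568). Its excess over control with paeonol, 0.29 (adjusted p = 0.0465), was at the threshold: it was not called when any library but paeonol library 1 was left out (edgeR adjusted p 0.0521 to 0.164), nor with library totals alone (0.362). That call was also lost with only these 2 groups fitted (edgeR adjusted p = 0.0709).

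Hspd1 and Hspe1 lie head to head on chromosome 1 and share the stretch between their starts. That stretch is shown because it holds a heat shock element, the site HSF1 binds, here searched as GAANNTTCNNGAA on both strands. Capitals mark the run of alternating units. It was read from RefSeq promoters of GRCm38.p6, plus strand, chr1:55088053-55088082, 95 to 66 bases before the Hspe1 start and within the annotated span of Hspd1.
Hspe1: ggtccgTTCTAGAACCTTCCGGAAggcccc
Of the 72 members, 58 had a RefSeq window running from 250 bases before to 50 after the start, and 4 of these, Hspd1, Hspe1, Hsph1 and Dnajb6, held the element, against 0.662% of 27025 genes with a window. The Hspd1 and Hspe1 matches are the same site, read from both windows. In Hsph1 the match lies after the start. Only these exact letters were searched as the element, so a window without them may hold another form of it. A match is a description of letters and not of binding.

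The inducible cytosolic Hsp70 genes had another order: they were highest with paeonol. Hspa1a (GRCm38 chr17:34969190-34972156, minus strand) had 84.7, 75.7 and 90.6 CPM in MC903+paeonol ears, 68.7, 62.8 and 61.4 CPM in MC903 ears and 78.9, 61.7 and 59.0 CPM in control ears. Hspa1b (chr17:34956436-34959238, minus strand) had 165, 165 and 167 CPM in MC903+paeonol ears, 114, 105 and 113 CPM in MC903 ears and 136, 106 and 110 CPM in control ears. Control library 1 was the highest control library of both genes, and in Hspa1a it overlapped the paeonol libraries. Hspa1b rose by 0.58 ± 0.09 with paeonol against MC903 ears (SE, edgeR adjusted p = 0.00047) and by 0.49 ± 0.09 against control ears (adjusted p = 0.00141). It differed by -0.09 ± 0.09 in MC903 against control ears (edgeR adjusted p = 0.442), a value that was -0.28 and called with library totals alone (adjusted p = 0.019) and 0.03 without control library 1.

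The 2 genes share sequence, since 47.1% of the 100-base stretches of the Hspa1a transcript occur in Hspa1b, so the split of reads between them is uncertain and their sum is the firmer value. Summed, they had 250, 240 and 258 CPM in MC903+paeonol ears, 183, 167 and 174 CPM in MC903 ears and 215, 168 and 169 CPM in control ears, and the paeonol libraries were above all others. Hspa1a alone differed by 0.38 ± 0.11 with paeonol against MC903 ears (edgeR adjusted p = 0.0215) and 0.33 ± 0.11 against control ears (adjusted p = 0.0383). The call against MC903 was lost without MC903 library 2 (adjusted p = 0.0705), MC903 library 3 (0.079), paeonol library 1 (0.0587) or paeonol library 3 (0.072). The call against control was lost without control library 2 (0.13), control library 3 (0.145), MC903 library 2 (0.0553), paeonol library 1 (0.0726) or paeonol library 3 (0.132) and with library totals alone (0.257). That call was also lost with only these 2 groups fitted (edgeR adjusted p = 0.0637). In MC903 against control ears Hspa1a differed by -0.05 (edgeR adjusted p = 0.746), or 0.09 without control library 1. Per length, the sum of the pair equalled 41.9, 36.9 and 33.6% of the Hspa8 level in MC903+paeonol ears, 16.4, 14.5 and 15.1% in MC903 ears and 47.6, 33.1 and 34.8% in control ears. This ratio was low in MC903 ears with Hspa8 high there, while the pair's own sum averaged 175 ± 7.67 CPM in MC903 ears and 184 ± 27 CPM in control ears (SD, n = 3 each). The lengths were those of merged exons, 4301 bases for Hspa8, whose longest coding transcript has 2394 bases. For Hspa1a and Hspa1b both lengths are the same (2967 and 2803 bases). The percentages are thus higher than they would be per transcript length, but the order of the groups does not depend on length. Of the Hspa8 stretches, 63.4% occur in other genes.

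The promoters of the pair are shown because their transcripts are so alike. Their 250 bases upstream of the start differ at 3 bases (98.8% identical), and both hold a head-to-head GAA pair, GAANNTTC, 104 to 97 bases before the start, marked by capitals. The stretches are from GRCm38.p6, minus strand, chr17:34972207-34972286 for Hspa1a and chr17:34959289-34959368 for Hspa1b.
Hspa1a: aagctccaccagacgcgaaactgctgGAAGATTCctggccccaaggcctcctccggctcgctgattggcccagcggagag
Hspa1b: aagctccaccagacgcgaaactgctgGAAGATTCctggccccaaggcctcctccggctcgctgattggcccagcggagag
That pair of units is common, found in 14 of 58 members and in 9.036% of all genes with a window, and it is also part of the longer element above. Neither window held the longer element as searched.

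Dnajb1 (Hsp40), the main J-domain partner of the inducible Hsp70, had 73.7, 75.0 and 76.9 CPM in MC903+paeonol ears, 52.3, 50.8 and 56.4 CPM in MC903 ears and 56.2, 48.9 and 47.9 CPM in control ears. Every paeonol library was above every other library. It rose by 0.50 ± 0.07 with paeonol against MC903 ears (SE, edgeR adjusted p = 0.000438) and by 0.56 ± 0.07 against control ears (adjusted p = 0.000263). It differed by 0.06 ± 0.07 in MC903 against control ears (adjusted p = 0.547). That value was -0.13 with library totals alone. Dnaja2, another cytosolic J-domain partner of Hsp70, had 176, 177 and 181 CPM in MC903+paeonol ears, 156, 142 and 151 CPM in MC903 ears and 142, 142 and 134 CPM in control ears. It was called higher with paeonol against both, by 0.25 and 0.35 on the log2 scale (edgeR adjusted p = 0.00681 and 0.000831). Dnajc9, which also binds histones, was 0.44 higher with paeonol in each comparison (edgeR adjusted p = 0.00189 against MC903 and 0.00204 against control), with 48.0, 53.7 and 48.3 CPM in MC903+paeonol ears, 34.0, 38.3 and 38.4 CPM in MC903 ears and 36.2, 35.1 and 39.7 CPM in control ears. Dnaja1, a further cytosolic partner, was called in no comparison (95.6, 101 and 109 CPM in MC903+paeonol ears, 99.1, 105 and 109 CPM in MC903 ears, and 107, 119 and 102 CPM in control ears), and 24.0% of its 100-base stretches occur in transcripts of other genes. With library totals alone Dnaja1 was called lower than in control ears in MC903 ears (-0.26, edgeR adjusted p = 0.0131) and in MC903+paeonol ears (-0.27, adjusted p = 0.0153).

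In the endoplasmic reticulum, Hspa5 (BiP), Hsp90b1 (Grp94) and the J-domain genes Dnajb9 (ERdj4) and Dnajb11 (ERdj3) were higher in MC903 than in control ears and were not called between MC903+paeonol and MC903 ears. Hspa5 had 399, 412 and 693 CPM in MC903+paeonol ears, 497, 521 and 618 CPM in MC903 ears and 250, 300 and 284 CPM in control ears. Hsp90b1 had 331, 338 and 453 CPM in MC903+paeonol ears, 402, 446 and 475 CPM in MC903 ears and 246, 268 and 244 CPM in control ears. Dnajb9 had 37.0, 38.9 and 55.4 CPM in MC903+paeonol ears, 38.8, 42.2 and 46.2 CPM in MC903 ears and 28.9, 26.6 and 25.2 CPM in control ears. In all 3 genes paeonol library 3 stood above paeonol libraries 1 and 2, which were below the lowest MC903 library for Hspa5 and Hsp90b1.

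Against control ears, the log2 changes in MC903 ears were 0.97 ± 0.21 for Hspa5 (SE, edgeR adjusted p = 0.00614), 0.80 ± 0.11 for Hsp90b1 (adjusted p = 0.000188), 0.66 ± 0.14 for Dnajb9 (adjusted p = 0.00271) and 0.49 ± 0.07 for Dnajb11 (adjusted p = 0.000118). With paeonol against MC903 ears they were -0.12 (edgeR adjusted p = 0.728), -0.24 (0.149), 0.05 (0.851) and -0.07 (0.474). Without paeonol library 3, Hspa5 and Hsp90b1 were lower with paeonol, by -0.43 and -0.40 (edgeR adjusted p = 0.00962 and 0.0035), so 1 library decides these values. With paeonol against control ears all 4 were called higher (0.85, 0.57, 0.70 and 0.42, edgeR adjusted p = 0.0181, 0.00372, 0.00345 and 0.000909), Hspa5 not without control library 1 (adjusted p = 0.0639) or control library 3 (0.0549). Dnajc3 (p58IPK), an inhibitor of the kinase PERK, was called in no comparison, with 82.9, 83.0 and 94.6 CPM in MC903+paeonol ears, 87.3, 84.9 and 91.6 CPM in MC903 ears and 80.4, 88.5 and 75.3 CPM in control ears.

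Of the members with a promoter window, Hspa5, Hsp90b1 and Dnajc3 held the endoplasmic reticulum stress element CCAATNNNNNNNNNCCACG, the site of the unfolded protein response, against 0.137% of all genes with a window. The sites are shown, in capitals, since the element is found in genes that were called (Hspa5, Hsp90b1) and in one that was not (Dnajc3). They come from GRCm38.p6 at chr2:34772020-34772049 (plus strand) for Hspa5, chr10:86705525-86705664 (minus strand) for Hsp90b1, which holds a match on each strand, and chr14:118937802-118937861 (plus strand) for Dnajc3.
Hspa5: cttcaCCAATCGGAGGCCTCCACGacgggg
Hsp90b1: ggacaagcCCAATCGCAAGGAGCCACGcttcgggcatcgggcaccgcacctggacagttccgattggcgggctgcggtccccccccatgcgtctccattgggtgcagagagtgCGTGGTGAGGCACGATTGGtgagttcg
Dnajc3: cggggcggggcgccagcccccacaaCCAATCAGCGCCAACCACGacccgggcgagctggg
The Hspa5 stretch lies before the RefSeq start but after the start of the GENCODE gene (chr2:34771970-34777547).

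Among the other Hsp70 genes, Hspa2 and Hspa12a were low in MC903 ears. Hspa2, best known for its role in sperm and also found in skin, had 17.2, 18.2 and 14.7 CPM in MC903+paeonol ears, 6.34, 6.88 and 6.97 CPM in MC903 ears and 23.1, 20.7 and 20.3 CPM in control ears. Hspa12a, a distant relative of Hsp70, had 66.1, 67.0 and 63.9 CPM in MC903+paeonol ears, 29.7, 27.9 and 28.7 CPM in MC903 ears and 78.2, 77.0 and 74.7 CPM in control ears. The 3 groups were apart for both genes. In MC903 against control ears Hspa2 fell by 1.67 ± 0.12 (SE, edgeR adjusted p = 1.07e-06) and Hspa12a by 1.41 ± 0.06 (adjusted p = 8.21e-08) on the log2 scale. With paeonol against MC903 ears they rose by 1.31 (edgeR adjusted p = 1.79e-05) and 1.19 (adjusted p = 7.52e-07), and their log2 changes against control ears were -0.36 and -0.22 (adjusted p = 0.0319 and 0.0118). The Hspa2 call against control was lost without control library 1 (adjusted p = 0.121), control library 2 (0.0616), control library 3 (0.0532), paeonol library 1 (0.0623) or paeonol library 3 (0.119).

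Hspa12b, a relative of Hspa12a that is found in endothelium, had another order of groups. It had 8.34, 7.69 and 8.05 CPM in MC903+paeonol ears, 9.20, 11.5 and 9.13 CPM in MC903 ears and 14, 16.2 and 13.9 CPM in control ears. It fell by 0.57 in MC903 against control ears (edgeR adjusted p = 0.00384) and by 0.87 in MC903+paeonol against control ears (adjusted p = 0.000578), and differed by -0.31 between MC903+paeonol and MC903 ears (adjusted p = 0.105). The 9 endothelial markers summed to 200 to 274 CPM in MC903+paeonol ears, 387 to 425 CPM in MC903 ears and 351 to 407 CPM in control ears; their part in the Hspa12b values was not tested. Hspa14, a ribosome-bound Hsp70, was called higher in MC903 than in control ears (0.37, edgeR adjusted p = 0.00117; 0.18 and not called with library totals alone). Hspa4l, an Hsp110 relative, had 63.2, 58.9 and 65.5 CPM in MC903+paeonol ears, 62.3, 64.3 and 52.3 CPM in MC903 ears and 54, 46.7 and 54 CPM in control ears. Its value against control with paeonol was 0.28 (edgeR adjusted p = 0.0366), not called without control library 2 (0.14), control library 3 (0.056), paeonol library 1 (0.0622) or paeonol library 3 (0.112), nor with library totals alone (0.11, adjusted p = 0.363). Its value in MC903 against control ears, 0.21 (adjusted p = 0.0779), was called without MC903 library 3 (0.0165). Hspa13 and Hspa1l were called in no comparison. With library totals alone Hspa1l was called lower in MC903+paeonol against control ears (-0.46, edgeR adjusted p = 0.0464).

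The small Hsps had lower calls and no higher ones in MC903 against control ears (5 of 8). Hspb1 (ENSMUSG00000004951, GRCm38 chr5:135887919-135889563, plus strand) had 255, 252 and 260 CPM in MC903+paeonol ears, 109, 112 and 85.6 CPM in MC903 ears and 259, 215 and 180 CPM in control ears. Hspb8 (Hsp22), which works with Bag3 in removing misfolded protein, had 120, 115 and 132 CPM in MC903+paeonol ears, 85.6, 80.6 and 77.0 CPM in MC903 ears and 108, 127 and 127 CPM in control ears. For both, the MC903 libraries were below all others, and the paeonol and control libraries overlapped. Hspb1 fell by 1.09 ± 0.13 in MC903 against control ears (SE, edgeR adjusted p = 8.50e-05) and rose by 1.32 ± 0.13 with paeonol against MC903 ears (adjusted p = 7.60e-05). Hspb8 fell by 0.57 ± 0.08 (edgeR adjusted p = 0.00012) and rose by 0.59 ± 0.08 (adjusted p = 0.000243) in the same comparisons.

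Against control ears with paeonol, Hspb1 differed by 0.23 ± 0.13 (SE, edgeR adjusted p = 0.226) and Hspb8 by 0.02 ± 0.08 (adjusted p = 0.893). Without control library 1, the control library with the most Hspb1, the Hspb1 value was 0.37 and called (adjusted p = 0.0374). The promoter of Hspb1 is shown because it has 2 head-to-head GAA pairs in the 60 bases printed, in capitals, 117 to 110 and 97 to 90 bases before the start (GRCm38.p6 chr5:135887789-135887848, plus strand).
Hspb1: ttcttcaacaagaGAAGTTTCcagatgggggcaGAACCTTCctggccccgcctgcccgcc
Of the 100-base stretches of the Hspb1 transcript, 42.7% occur in transcripts of other genes, Hsp25-ps1 among them, so some of its reads could have been assigned otherwise.

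Hspb2, Hspb3, Hspb6 (Hsp20) and Hspb7 are known from muscle. Hspb6, found in smooth and striated muscle, had 59.3, 62.8 and 65.2 CPM in MC903+paeonol ears, 43.7, 47.5 and 47.0 CPM in MC903 ears and 88.4, 119 and 134 CPM in control ears. Hspb2 had 3.99, 4.13 and 3.89 CPM in MC903+paeonol ears, 1.96, 3.42 and 3.32 CPM in MC903 ears and 6.87, 9.01 and 8.10 CPM in control ears. Hspb3 had 1.27, 1.7 and 1.5 CPM in MC903+paeonol ears, 0.666, 0.444 and 0.145 CPM in MC903 ears and 2.99, 2.85 and 3.30 CPM in control ears; its MC903 values rest on 34, 24 and 8 estimated counts, the last under the floor of 12, so its fitted changes are imprecise in size. In each of these genes every MC903 library lay below every paeonol library, and every paeonol library below every control library.

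Log2 changes in MC903 against control ears were -1.31 ± 0.13 for Hspb6 (SE, edgeR adjusted p = 1.44e-05), -1.46 ± 0.22 for Hspb2 (adjusted p = 0.00023) and -2.87 ± 0.42 for Hspb3 (adjusted p = 0.000187). With paeonol against MC903 ears they were 1.83 for Hspb3 (edgeR adjusted p = 0.00639), 0.44 for Hspb6 (adjusted p = 0.0234) and 0.46 for Hspb2 (adjusted p = 0.144). The Hspb6 call was lost without MC903 library 1 (0.0794), 2 (0.0547) or 3 (0.0617) or paeonol library 2 (0.0663) or 3 (0.0736). Against control with paeonol, Hspb6 and Hspb2 fell by 0.87 and 1.00 (edgeR adjusted p = 0.000588 and 0.00526), and Hspb3 differed by -1.03 (adjusted p = 0.0641). Hspb3 was called there without MC903 library 1 or 3 (edgeR adjusted p = 0.0113 to 0.0391) and by DESeq2 (adjusted p = 0.0281). By edgeR it was also called with only these 2 groups fitted (adjusted p = 0.00885), counts divided by 4 (0.0172) or library totals alone (0.032). Hspb7 was called in no comparison, with 33.3, 33.9 and 39.2 CPM in MC903+paeonol ears, 39.1, 38.5 and 39.3 CPM in MC903 ears and 36.4, 40.6 and 54.6 CPM in control ears. It was called lower with library totals alone in MC903 against control ears (-0.36, edgeR adjusted p = 0.0338) and in MC903+paeonol against control ears (-0.47, adjusted p = 0.0142), and in the comparison of MC903+paeonol with control ears also without control library 1 (0.0272).

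The 20 skeletal muscle markers summed to 3657 to 4863 CPM in MC903+paeonol ears, 3183 to 4060 CPM in MC903 ears and 7018 to 10503 CPM in control ears, with a median log2 change of -1.46 in MC903 against control ears and 0.40 in MC903+paeonol against MC903 ears. The 9 smooth muscle markers summed to 322 to 331 CPM in MC903+paeonol ears, 408 to 471 CPM in MC903 ears and 431 to 541 CPM in control ears. Their median log2 change was 0.25 in MC903 against control ears and -0.60 in MC903+paeonol against MC903 ears. The sums lean on Des, the largest of these markers, with 145, 180 and 165 CPM in MC903 ears and 216, 288 and 307 CPM in control ears. The part of muscle in the values of Hspb2, Hspb3 and Hspb6 was not tested. Hspb11 and Hspb9 were called in no comparison, and Hspb9 had at most 0.682 CPM in any library. Without control library 1, Hspb9 was called higher in MC903 against control ears (2.03, edgeR adjusted p = 0.0487). Of the Hspb2 stretches of 100 bases, 22.7% match Cryab, whose exons overlap those of Hspb2 on the opposite strand.

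**Figure D4:**
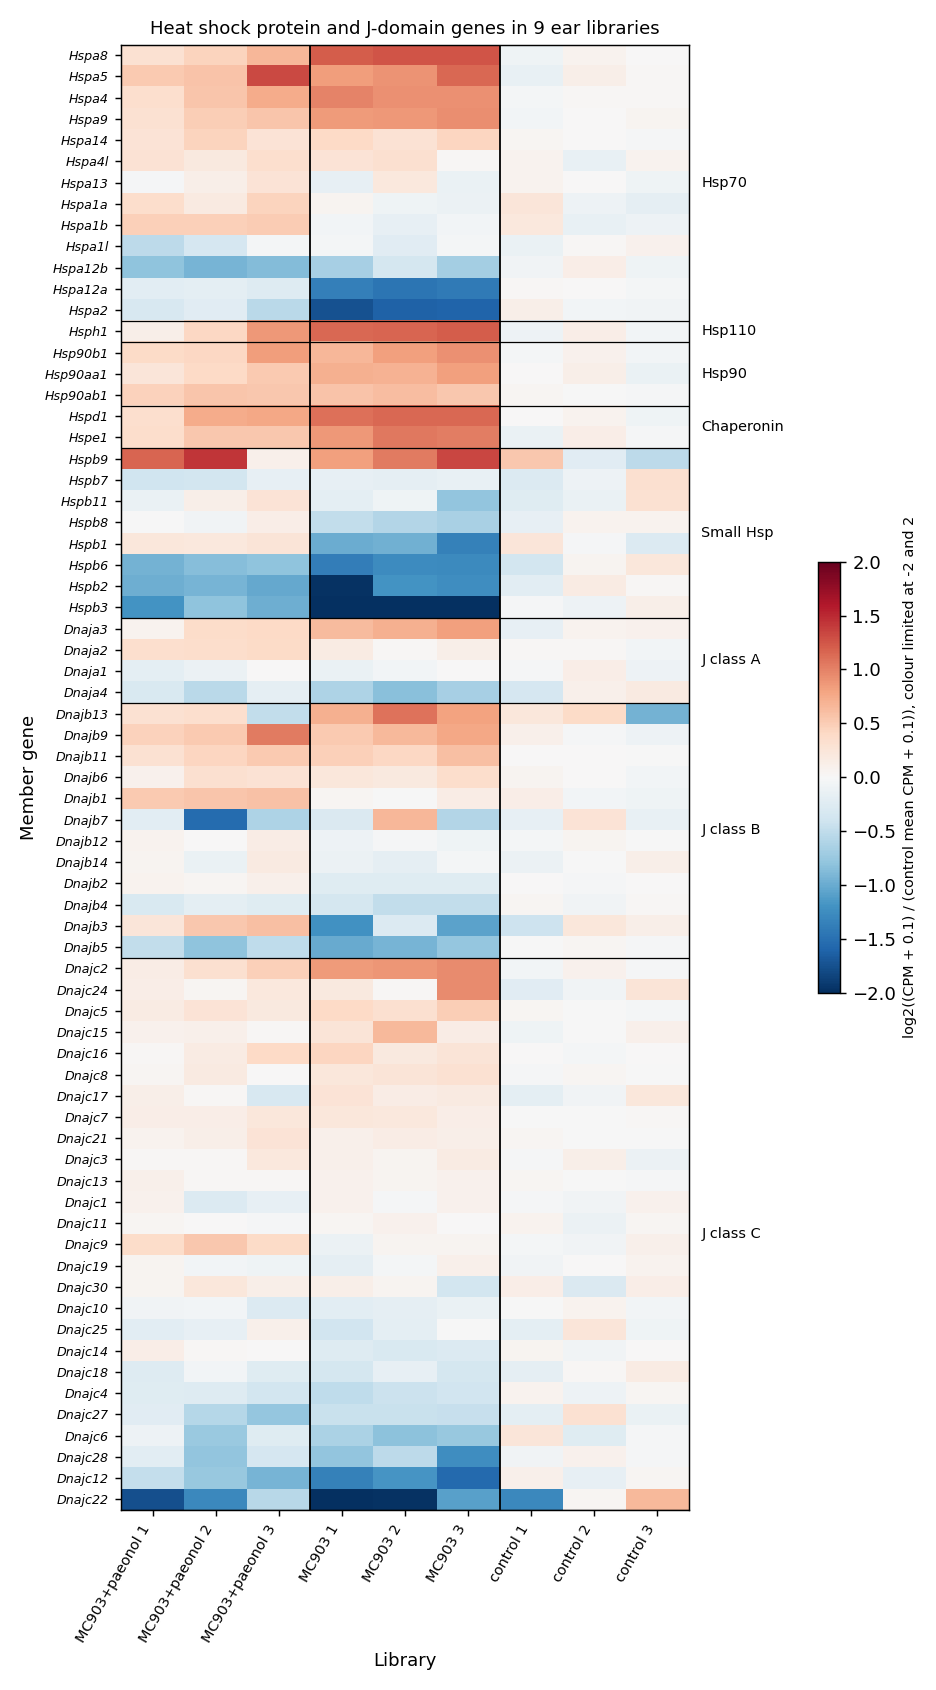
Log2 ratio of each library's CPM to the control mean (0.1 CPM added to both) for the 69 tested members, by family, with the MC903+paeonol, MC903 and control libraries side by side; colour is limited at -2 and 2. Hspa8, Hspa4, Hspa9, Hsph1, Hspd1 and Hspe1 are reddest in the MC903 columns, Hspa2, Hspa12a and most small Hsps are bluest there, and Hspa1b and Dnajb1 are reddest in the paeonol columns.

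Among the other J-domain genes, most changes were small. The median size of the log2 change of the 42 tested J-domain genes was 0.27 in MC903 against control ears, beside 0.49 for all genes, and 0.19 in MC903+paeonol against MC903 ears, beside 0.33. Dnajc2 (Mpp11 or zuotin), which works at the ribosome with Hspa14, had the smallest p of class C in MC903 against control ears. It had 39.2, 44.2 and 48.9 CPM in MC903+paeonol ears, 63.9, 64.8 and 67.8 CPM in MC903 ears and 33.8, 37.2 and 34.6 CPM in control ears. It rose by 0.90 in MC903 against control ears (edgeR adjusted p = 6.86e-06), fell by 0.57 with paeonol against MC903 ears (adjusted p = 0.000415) and was 0.33 above control with paeonol (adjusted p = 0.0116; 0.16 and not called with library totals alone). Dnajc5 (cysteine string protein), a chaperone of vesicle release, rose by 0.41 in MC903 against control ears (edgeR adjusted p = 0.00025).

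Dnajb5 had 21.7, 17.4 and 21.5 CPM in MC903+paeonol ears, 15.1, 16.1 and 17.9 CPM in MC903 ears and 30.4, 31.4 and 30.0 CPM in control ears. It fell by 0.90 in MC903 against control ears (edgeR adjusted p = 3.54e-05) and by 0.60 in MC903+paeonol against control ears (adjusted p = 0.00147). Its value between MC903+paeonol and MC903 ears, 0.30, just missed the threshold (adjusted p = 0.051) and passed it without MC903 library 3 or paeonol library 2 (0.016 to 0.0431). It also passed by DESeq2 (adjusted p = 0.0361). By edgeR it passed with DESeq2 size factors (0.0495), library totals alone (0.0406), a mean CPM of at least 1 (0.0443) or counts divided by 4 (0.0489). Dnajb4, an Hsp40 close to Dnajb1, had 47.5, 50.9 and 49.6 CPM in MC903+paeonol ears, 45.8, 41.7 and 41.6 CPM in MC903 ears and 60.2, 56.0 and 59.4 CPM in control ears. It fell by 0.44 in MC903 against control ears (edgeR adjusted p = 0.000204). Its rise with paeonol against MC903, 0.20 (adjusted p = 0.0434), was lost when any control library was left out, and without MC903 library 2 or 3, or paeonol library 2 or 3 (0.0517 to 0.136). That call was also lost with only these 2 groups fitted, no low count filter or a replicate block (edgeR adjusted p = 0.0662, 0.0668 and 0.0601). Its log2 change against control with paeonol, -0.25 (adjusted p = 0.0151), was not called without control library 1 or 3 or paeonol library 1 (0.0522 to 0.067). Dnajb2, a neuronal J-domain protein, and Dnajc14 fell by 0.24 and 0.28 in MC903 against control ears (edgeR adjusted p = 0.00287 and 0.0023) and rose by 0.31 and 0.33 with paeonol against MC903 ears (adjusted p = 0.00116 and 0.0014). Of the Dnajc14 stretches of 100 bases, 24.6% match Ormdl2, whose exons overlap those of Dnajc14 on the opposite strand. Dnajb3 was low in every library, with 3.71, 4.54 and 4.79 CPM in MC903+paeonol ears, 1.29, 2.55 and 1.43 CPM in MC903 ears and 2.30, 3.66 and 3.38 CPM in control ears. It rose by 1.3 with paeonol against MC903 ears (adjusted p = 0.00582).

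Dnaja4 fell by 0.71 in MC903 against control ears (edgeR adjusted p = 0.00158), with 50.6, 43.1 and 55.5 CPM in MC903+paeonol ears, 41.0, 34.9 and 39.4 CPM in MC903 ears and 49.6, 67.6 and 70.8 CPM in control ears. With paeonol it differed by 0.37 against MC903 ears (edgeR adjusted p = 0.0651) and by -0.33 against control ears (adjusted p = 0.0911) and was called in neither. Control library 1 was its lowest control library, and without it both passed the threshold (edgeR adjusted p = 0.0171 and 0.00912), as they did with library totals alone (0.40 and -0.50, adjusted p = 0.0446 and 0.0146). The value against MC903 ears also passed it without paeonol library 2 (0.0401), with only these 2 groups fitted (0.0258) and by DESeq2 (0.0323). Of the 100-base stretches of the Dnaja4 transcript, 51.0% occur in transcripts of Wdr61, so reads may be shared between these genes. Dnajc12, a J-domain protein that helps fold aromatic amino acid hydroxylases, had 3.76, 3.1 and 2.72 CPM in MC903+paeonol ears, 2.02, 2.29 and 1.74 CPM in MC903 ears and 5.71, 4.72 and 5.42 CPM in control ears. It fell by 1.39 in MC903 against control ears (edgeR adjusted p = 0.000197). Its value with paeonol against MC903, 0.66 (adjusted p = 0.0309), was not called without MC903 library 1 or 3 or paeonol library 1 or 2 (0.0627 to 0.116). That call was also lost with only these 2 groups fitted (edgeR adjusted p = 0.0628). Its value against control, -0.73 (adjusted p = 0.0181), was not called without control library 1 or 3 or paeonol library 2 or 3 (0.057 to 0.0715). Dnajc22 had at most 2.1 CPM in any library, and its value in MC903 against control ears, -2.11 (adjusted p = 0.0289), was not called without control library 2 or 3 or MC903 library 1 or 2 (0.06 to 0.13).

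Genes that work with these chaperones were read from lists of their pathways. Of all genes tested, 23.0% were called higher and 23.8% lower in MC903 against control ears. With paeonol these shares were 15.3 and 14.3% against MC903 ears and 16.3 and 14.5% against control ears. Of 14 genes of the cytosolic chaperonin TRiC and its helper prefoldin, 12 were called higher and 1 lower in MC903 against control ears, 0 higher and 11 lower with paeonol against MC903 ears, and 12 higher and 1 lower with paeonol against control ears. Cct2 averaged 287 ± 16.8 CPM in MC903+paeonol ears, 373 ± 4.24 CPM in MC903 ears and 197 ± 8.62 CPM in control ears (SD, n = 3 each). Of 22 tested genes of endoplasmic reticulum stress and folding, 17 were higher and 1 lower in MC903 against control ears, while 0 were higher and 2 lower with paeonol against MC903 ears, and 15 were higher and 1 lower with paeonol against control ears. Paeonol library 3 stood apart in this list too, which summed to 3169, 3263 and 3726 CPM in MC903+paeonol ears, 3522, 3718 and 3857 CPM in MC903 ears and 2457, 2628 and 2489 CPM in control ears. Without that library 7 genes were lower with paeonol against MC903 ears and 9 higher against control ears. The 2 lower calls were 1 without MC903 library 3 or paeonol library 1 or 2. The higher calls against control were also 9 without control library 3, 10 without control library 1 and 8 with library totals alone. Atf4, a transcription factor of the integrated stress response, was one of those 2 and averaged 231 ± 31.3 CPM in MC903+paeonol ears, 370 ± 39.4 CPM in MC903 ears and 168 ± 20.7 CPM in control ears (SD, n = 3 each). Ddit3 of this list was listed at 0 in every library. Of 12 mitochondrial import and folding genes, 9 were higher in MC903 against control ears, 5 lower with paeonol against MC903 ears and 8 higher with paeonol against control ears, with none the other way. The 8 became 5 without paeonol library 3 and 4 with library totals alone, and the 5 became 3 without MC903 library 3 or paeonol library 1. In TRiC and prefoldin the 12 higher calls with paeonol against control became 8 with library totals alone. Median log2 changes in MC903 against control ears were 0.83, 0.40 and 0.44 for these 3 lists, beside -0.02 for all genes. With paeonol against MC903 ears the medians were -0.33, -0.04 and -0.20, beside 0.00. Lonp1, the mitochondrial protease, averaged 123 ± 11.9 CPM in MC903+paeonol ears, 185 ± 15.3 CPM in MC903 ears and 103 ± 8.62 CPM in control ears (SD, n = 3 each).

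The list of HSF1, HSF2 and cochaperones was mixed, beside 23.0% higher and 23.8% lower of all genes in MC903 against control ears. With paeonol those all-gene shares were 15.3 and 14.3% against MC903 ears and 16.3 and 14.5% against control ears. Of the 28 genes of the list, 12 were higher and 5 lower in MC903 against control ears. With paeonol, 5 were higher and 11 lower against MC903 ears, and 6 higher and 7 lower against control ears. Library totals alone gave 10 and 11 in MC903 against control ears and 3 and 10 with paeonol against control ears, and the 11 lower with paeonol against MC903 became 7 without MC903 library 1 or paeonol library 1 or 2 or with only these groups fitted. The 7 lower with paeonol against control became 4 without paeonol library 3. Its median log2 changes were 0.11, -0.15 and 0.09 in the order of the comparisons above, beside -0.02, 0.00 and -0.03 for all genes. The smallest p in it against control in MC903 ears was that of Fkbp5, an Hsp90 cochaperone that is also a known glucocorticoid target, with 33.7, 25.5 and 30.4 CPM in MC903+paeonol ears, 146, 125 and 136 CPM in MC903 ears and 42.7, 39.3 and 41.3 CPM in control ears. Fkbp5 rose by 1.72 in MC903 against control ears (edgeR adjusted p = 4.16e-07) and fell by 2.18 with paeonol against MC903 ears (adjusted p = 6.94e-07). Hsf2 was lowest in MC903 ears, with 30.4, 26.3 and 30.8 CPM in MC903+paeonol ears, 14.6, 19.1 and 17.8 CPM in MC903 ears and 45.2, 37.8 and 45.3 CPM in control ears. Hsf1, picked after its values were seen, averaged 38.2 ± 3.03 CPM in MC903+paeonol ears, 47.0 ± 2.91 CPM in MC903 ears and 41.4 ± 2.33 CPM in control ears (SD, n = 3 each). Its log2 change with paeonol against MC903 was -0.30 (edgeR adjusted p = 0.0161). Immediate early genes, a sign of how tissue was handled as well as of stress, were higher in 8 of 12 in MC903 against control ears, lower in 4 with paeonol against MC903 ears and higher in 7 with paeonol against control ears. The 4 lower calls became 2 without paeonol library 1 or 2, and without paeonol library 2 there was 1 higher call. Their median log2 changes were 0.77, -0.36 and 0.56 in the same order. They summed to 612 to 791 CPM in MC903+paeonol ears, 754 to 970 CPM in MC903 ears and 380 to 486 CPM in control ears.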

How the data were processed

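RNA was measured by poly(A) sequencing of strand-marked (dUTP) libraries of mouse ear, per the labels' protocols. The authors deposited 1 table of whole-number estimated counts per Ensembl gene; reads had gone through cutadapt, HISAT2 2.0.4 on GRCm38 and StringTie 1.3.4d, tools named in the submitters' processing notes. The sources used here give neither the step from StringTie's coverage to whole numbers nor the strand setting or filters. Small values piled up at 4 and 8 (value 4 was 1.9 to 2.23 times and value 8 1.23 to 1.49 times as frequent as its neighbours), so a value need not equal a number of reads, and division by 4 was an alternative; the detection floor of 12 counts follows from this step. Symbols, gene types and exon lengths came from GENCODE M21 (GRCm38; 55141 of 55401 IDs matched), and 14 processed pseudogenes whose symbols fit the name pattern were left out. 9 members overlap another gene's exons on the same strand and 25 on the other strand, where reads may be shared; coordinates are GENCODE's.

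Counts were tested with edgeR 4.0.16 in R 4.3.3 (robust quasi-likelihood F test, two-sided, TMM factors 0.942 to 1.09, filterByExpr with a minimum count of 10 and total of 15, 9 libraries in 1 fit, Benjamini-Hochberg over 21925 genes, common biological coefficient of variation 0.214). The standard error is the log2 change divided by the root of F. The test of MC903 against control ears was checked on simulated data in which 21725 of 21925 genes were unchanged. It called, with the right sign, 28.4% of genes changed 1.5-fold, 44.8% changed 2-fold and 74.2% changed 4-fold. Among changed genes with a mean CPM of at least 1 these shares were 35.8, 63.8 and 94.2%. Of unchanged genes 0.0368% were called. In the data 46.8% of genes were called in this comparison. The cutoff on p was therefore stricter in the simulation, and its shares may be too low for the data. A gene that was not called may still differ by 1.5-fold or 2-fold. Groups follow the treatment labels; replicate numbers do not pair libraries. Shared sequence is the share of a transcript's 100-base stretches found in other genes' transcripts, searched on both strands. A match to an overlapping gene on the opposite strand shares reads only if strand was not used in counting. Promoter sequence came from RefSeq windows of GRCm38.p6.

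Alternatives were DESeq2 1.42.0, its size factors, library totals alone, no low count filter, a mean CPM of at least 1, only the 2 groups compared, counts divided by 4, a replicate block and leaving out each library. Members and lists were chosen with earlier results of these data known. Named with full values were 28 members picked for their roles, the 3 with the smallest p of each family, the 3 largest called changes in each direction, and the 3 smallest p of each pathway list; cell type lists are given by counts, medians and sums.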

Additional observations from a re-analysis of the deposited data

How the results depend on the processing

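The numbers of members called moved by less than 1.5 times in MC903 against control ears (15 to 22 higher and 18 to 27 lower over alternatives that kept all libraries, 19 to 21 and 16 to 20 over fits that left out 1 library; 21 and 20 as reported) and in MC903+paeonol against MC903 ears (15 to 18 higher and 9 to 11 lower, and 13 to 16 and 9 to 11; 16 and 11 as reported). In MC903+paeonol against control ears, library totals alone gave 15 higher and 17 lower members instead of 24 and 10, and leaving out 1 library gave 16 to 23 higher and 5 to 10 lower, the lowest being 5 without control library 3 and 6 without MC903+paeonol library 3. Under library totals alone the all-gene median log2 change was -0.205 and -0.197 in the comparisons of MC903 and MC903+paeonol with control ears, and all genes split into 3402 higher and 7224 lower in MC903 (5044 and 5215 as reported) and 2155 and 5354 in MC903+paeonol (3578 and 3187 as reported).

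Among the members named with full values, signs turned only where the member was not called; Dnajc7, called at 0.19 and 0.16 against control in MC903 and in MC903+paeonol ears, was at -0.00 in both (edgeR adjusted p = 0.995 and 0.958) with library totals alone. With that scaling the named members were Dnaja2 (-0.08), Dnajb1 (-0.13) and Dnajc3 (-0.08) in MC903 against control, Dnajc3 (0.01) in MC903+paeonol against MC903, and Dnajc3 (-0.07) and Hspb8 (-0.14) in MC903+paeonol against control. With 1 library left out, ranges crossed 0 in MC903 against control for Dnaja1 (-0.11 to 0.00198), Hspa1a (-0.13 to 0.09), Hspa1b (-0.16 to 0.03) and Hspb7 (-0.29 to 0.02). In MC903+paeonol against MC903 they did so for Dnaja1 (-0.09 to 0.01), Dnajb9 (-0.16 to 0.16), Dnajc3 (-0.08 to 0.02), Hspa4l (-0.02 to 0.13) and Hspa5 (-0.43 to 0.02), and in MC903+paeonol against control for Hspb8 (-0.05 to 0.06). The cause was not tested. Of the values of named members under alternatives, 596 of 611, 581 of 629 and 518 of 578 kept their sign and their side of the threshold in the 3 comparisons in the order above. These shares are no measure of robustness for the whole set. The named members include those with the smallest p and largest called changes of the same comparison. The alternatives include fits that left out a library of the group not compared.

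Libraries with the same number did not deviate together (correlations -0.011 to 0.04), so the replicate block pairs nothing but numbers; with it the members called were 22 higher and 18 lower, 15 and 10, and 22 and 9. Calls lost without 1 library among other J-domain genes included those of Dnajc5 and Dnajc8 in MC903+paeonol against MC903 (6 and 7 of 9 fits, adjusted p up to 0.155 and 0.123 by edgeR), Dnajc4, Dnajc7 and Dnajc27 in MC903+paeonol against control (5, 8 and 7 of 9 fits), and Dnajc6 and Dnajc27 in MC903 against control (7 and 6 of 9 fits). Lower J-domain calls were 2 instead of 4 in MC903+paeonol against MC903 ears with no low count filter or with only these groups fitted, and 3 instead of 5 in MC903+paeonol against control ears with no filter. Depth limits Hspb3, Dnajb7, Dnajc22 and Hspb9, which were under the 12-count floor in at least 1 library.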
